A study of Mus musculus with 24 samples.

Results

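The genes described here were the chemokines and chemokine receptors of the mouse: every gene whose symbol starts with Ccl, Cxcl, Ccr or Cxcr and a number, together with Cx3cl1, Cx3cr1, Xcl1 and Xcr1, and without Cxcl12. The rule found 51 genes, 32 ligands and 19 receptors. Of these, 49 were among the 18052 genes measured in sorted skeletal stem cells, and all 51 were among the 20968 genes measured in bulk distal femur. Ccl19 was in the second set alone. Cxcr7 is the older symbol of Ackr3. It counted as a member in the second set, while in sorted cells the gene was listed as Ackr3, which the rule does not match.

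The samples came from the distal femur of C57BL/6J mice. Sorted mouse skeletal stem cells (mSSC) were taken from healthy newborns at postnatal day 3 (4 arrays), from healthy adults of 9 to 25 weeks (3 arrays) and from adults of that age whose joints had been microfractured, a procedure that drills small holes through the joint surface into the marrow space (3 arrays). The gate for these cells was CD45-, TER119-, TIE2-, ITGAV+, THY1-, 6C3- and CD105-, so blood and vessel cells were gated out by surface protein. Bulk tissue was frozen and crushed bone, with 3 arrays of newborns, 5 of uninjured adults and 3 of microfractured adults. A further 3 single arrays held mSSC from microfractured adults whose joints had received PBS, BMP2 or VEGFR1. All groups had the same strain, no allele was given for any of them, and the sources used here did not state the time since microfracture. The labels did not say that replicates were separate animals, so each p-value measured the spread between these arrays, which may be technical.

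Chemokines are small secreted proteins that draw cells along a gradient, and they signal through receptors that couple to inhibitory G proteins. CXC ligands with an ELR motif, such as Cxcl1 and Cxcl2, call neutrophils through Cxcr2. CC ligands such as Ccl2 and Ccl3 call monocytes and macrophages through receptors such as Ccr1 and Ccr2, and Cxcr4, the receptor of Cxcl12, holds blood cells in the marrow. In bone, stromal cells secrete several of these ligands, while most of the receptors are carried by blood cells.

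Cxcl1, Cxcl2 and Cxcl10, whose levels in mSSC changed in different directions between the groups, lie on chromosome 5, as did 10 of the 51 genes. The sequences shown are the 200 bases before each start site in RefSeq's annotation of GRCm38.p6, written 5′ to 3′ on the strand of the gene, because these genes share a match to a kappaB core, the motif that NF-kappaB binds. Capitals mark that match, searched as the letters GGNATTTCC on both strands.
Cxcl1, chr5:90891045-90891244, plus strand: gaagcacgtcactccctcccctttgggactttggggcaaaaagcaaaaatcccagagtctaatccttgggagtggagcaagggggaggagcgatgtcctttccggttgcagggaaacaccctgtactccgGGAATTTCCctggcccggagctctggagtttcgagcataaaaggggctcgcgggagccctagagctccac
Cxcl2, chr5:90903699-90903898, plus strand: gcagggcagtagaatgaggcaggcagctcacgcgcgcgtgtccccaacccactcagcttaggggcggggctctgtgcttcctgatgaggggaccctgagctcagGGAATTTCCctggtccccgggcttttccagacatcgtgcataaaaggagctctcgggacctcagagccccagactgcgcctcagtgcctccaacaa
Cxcl10, chr5:92348890-92349089, minus strand: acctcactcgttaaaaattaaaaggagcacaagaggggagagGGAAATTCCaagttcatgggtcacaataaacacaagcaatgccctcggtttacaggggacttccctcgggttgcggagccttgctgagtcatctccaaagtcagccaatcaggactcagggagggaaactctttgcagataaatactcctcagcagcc
The match began 70 bases before the start site in Cxcl1, 96 before it in Cxcl2 and 158 before it in Cxcl10. Of the 38 promoters given for 36 members, 6 held the match within 250 bases before to 50 bases after the start (15.8%), against 1.25% of all 32851 promoters. The others were Cxcl3, Cxcl9 and Ccr3. The letters TATAAA stood in 12 of the 38 (31.6%) and in 13.6% of all promoters. The start sites of Cxcl1 and Cxcl2 are 12654 bases apart. A match describes letters in a window and is no evidence that a factor is bound.

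The mSSC groups differed in blood cell markers and at the low end of the signal, and both moved with most of the chemokine genes. Values are MAS5 intensities, a linear brightness per gene that the authors scaled so that the trimmed mean of an array, without the lowest and highest 2%, lay between 490.3 and 494.9. Ptprc, the gene of CD45, read 38.5 to 88.3 in newborn arrays, 3147 to 3865 in uninjured adult arrays and 528 to 791 in microfractured adult arrays, so its RNA was present in adult cells gated as CD45-. The summed level of 8 monocyte and macrophage markers was 1073 to 1618 in newborn, 18322 to 21477 in uninjured adult and 4366 to 10219 in microfractured adult mSSC. For 8 neutrophil markers the sums were 2340 to 3329, 41796 to 76518 and 9766 to 30992 in the same order, and for 6 erythroid markers 321 to 880, 7054 to 7932 and 1442 to 2571. These 3 sums did not overlap between newborn and adult arrays. Sums of 7 lymphocyte markers (161 to 419 in newborn, 1768 to 2788 in uninjured adult and 360 to 553 in microfractured adult arrays), 6 megakaryocyte markers (385 to 792, 1898 to 3130 and 405 to 870) and 8 endothelial markers (383 to 645, 1503 to 3706 and 380 to 904) overlapped between newborn and microfractured adult arrays and were highest in uninjured adults. Sums of 8 skeletal markers, by contrast, lay at 31012 to 48910 in uninjured and 35012 to 43778 in microfractured adults, and at 26063 to 27151 in newborns. A set of 62 olfactory and vomeronasal receptor genes, which bone is not known to use, had a median of 119 to 216 in uninjured adult arrays, 13.4 to 47.6 in microfractured adult and 17.1 to 27.5 in newborn arrays. On the log2(intensity + 16) scale used below that median differed by -1.86 between microfractured and uninjured adults and by -2.17 between newborns and uninjured adults. The part that blood cells or the raised low end of the uninjured adult arrays play in the differences below was not tested.

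Of the 49 members in mSSC, 19 passed the filter, which asked for an intensity above the table median of 250 in at least 3 arrays. Among these, 7 (Ccl4, Ccl5, Ccl25, Cxcl15, Ccr1, Ccr6 and Ccr7) passed through the 3 uninjured adult arrays alone and so had to be lower elsewhere. Counts over the 19 are therefore descriptions. In microfractured against uninjured adult mSSC, limma called 1 of the 19 higher and 10 lower at a Benjamini-Hochberg adjusted p under 0.05 over all 10893 genes tested, where 13.3% of all genes were called higher and 19.8% lower. Leaving aside the 7, 1 of 12 was called higher and 6 lower. Of these 12, Ccl2, Ccl3, Ccl6, Cxcl16, Cxcr2 and Cxcr3 also needed uninjured adult arrays to pass. The filter thus favoured high uninjured readings for them too. Only Cxcl1, Cxcl2, Cxcl10, Cxcl14 and Cxcl16 were above the table median in any newborn array. All other members past the filter got there through adult arrays alone. For those the filter favoured low newborn readings against both adult groups, while Cxcl10 needed newborn arrays to pass. The median log2 difference was -1.39 over the 19 and -0.04 over all genes tested. Centring each array on its median moved the latter to 0.61, turned the calls over all genes from 1453 higher and 2153 lower to 4882 and 929, and called 2 members higher and 9 lower. Quantile normalization gave 1487 and 1314 over all genes, with 1 member higher and 10 lower. Without uninjured adult replicate 1, 2 or 3 the filter left 13 members, of which 6, 7 and 6 were called. In newborn against uninjured adult mSSC, 2 members were called higher and 16 lower, against 25.2% and 29.4% of all genes. With median centring, the median over all genes went from -0.02 to 0.68 and their calls from 2743 higher and 3202 lower to 5702 and 1789, with 2 members higher and 14 lower. Without uninjured adult replicate 1 or 2, 10 and 11 of 13 members were called. In newborn against microfractured adult mSSC the counts were 1 higher and 9 lower, against 18.4% and 18.3%. The first pair of these comparisons shares the uninjured adult arrays, the latter pair shares the newborn arrays, and the remaining pair the microfractured arrays.

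**Figure D1:**
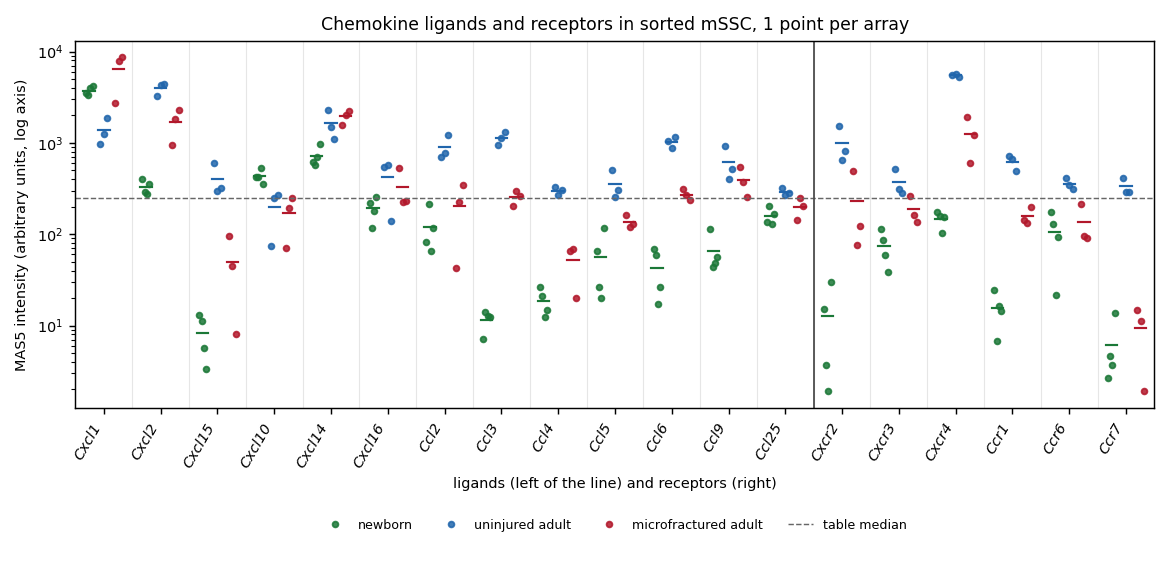
Intensity (log axis, arbitrary units) of the 19 members past the filter in each of the 10 mSSC arrays, with 1 point per array, a bar at each group mean and a dashed line at the table median. For most members the 3 uninjured adult arrays lie highest, while Cxcl1 lies lowest there, between 966 and 1889.

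Among the neutrophil-attracting CXC ligands, Cxcl1 rose after microfracture while Cxcl2 fell. Cxcl15 fell as well, a direction that the filter had fixed. Cxcl1 read 966, 1262 and 1889 in uninjured adult mSSC. In microfractured adult mSSC it read 2764, 7897 and 8637, and in newborn mSSC 3482, 3326, 4009 and 4161. Every microfractured and every newborn array was above every uninjured array, and the microfractured arrays were the most spread. The log2 difference was 2.10 ± 0.37 (SE; limma adjusted p = 0.0022) for microfractured and 1.49 ± 0.34 (adjusted p = 0.00283) for newborn against uninjured adults. Between newborn and microfractured adults, whose arrays overlapped, it was -0.62 ± 0.34 (adjusted p = 0.178). Among the 11 members called after microfracture Cxcl1 was the 1 that rose. Ptprc and the low end of the signal fell in that comparison, and their part in the values of Cxcl1 was not tested.

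Cxcl2, the close relative of Cxcl1 that also signals through Cxcr2, ran the other way. It read 3264, 4309 and 4408 in uninjured adults, 953, 1809 and 2289 in microfractured adults, and 403, 293, 275 and 353 in newborns. No groups overlapped. The differences were -1.31 ± 0.28 after microfracture (limma adjusted p = 0.00541) and -3.53 ± 0.26 (adjusted p = 6.69e-07) in newborns, both against uninjured adults, and -2.22 ± 0.26 (adjusted p = 3.33e-05) between newborns and microfractured adults. With each array centred on its median, the change after microfracture was -0.66 and was not called (adjusted p = 0.113). Within an array, log2 Cxcl1 minus log2 Cxcl2 was -1.76 to -1.22 in uninjured adults, 1.52 to 2.12 in microfractured adults and 3.06 to 3.79 in newborns. This difference shifted by 3.42 after microfracture and by 5.02 in newborns relative to uninjured adults. Centring an array on its median cannot move it, but quantile normalization can, and the latter was not tried on it. The pair was chosen after its values were seen, so no test is given, and the size of the difference in a single group has no meaning between probe sets.

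**Figure D2:**
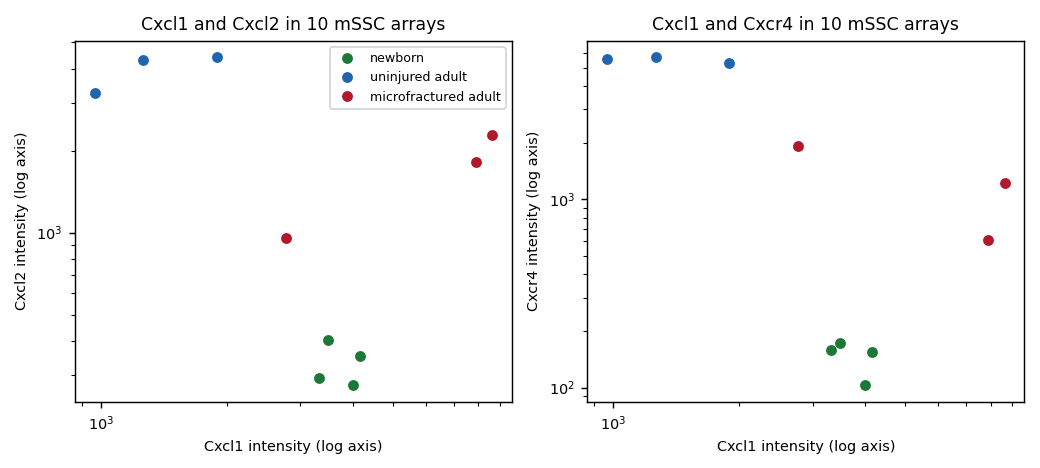
Intensities in the 10 mSSC arrays on log axes, 1 point per array, with Cxcl1 on the horizontal axis against Cxcl2 (left) and Cxcr4 (right). The uninjured adult arrays lie at the upper left of both panels, with Cxcl1 at 966 to 1889, Cxcl2 at 3264 to 4408 and Cxcr4 at 5274 to 5688.

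Cxcl15, a neutrophil-attracting ligand known from mouse lung, read 299 to 600 in uninjured adults, 8.09 to 95 in microfractured adults and 3.3 to 13 in newborns. It fell by 2.88 ± 0.66 (limma adjusted p = 0.00709) after microfracture and by 4.07 ± 0.62 in newborns, both on the log2 scale against uninjured adults. Uninjured adults alone carried it past the filter, so it had to be lower elsewhere. In newborns it lay below the olfactory and vomeronasal receptor medians. In microfractured adults it ranged from below to above those medians. Cxcl3 and Cxcl5 did not pass the filter, with no array above 113 and 132, respectively.

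Cxcl10, an interferon-induced ligand of Cxcr3, was called higher in newborns than in both adult groups. It was above the table median in 4 newborn arrays and in 1 array of each adult group. It thus needed newborn arrays to pass the filter, which favoured high newborn readings. It read 428, 423, 525 and 352 in newborn mSSC. In uninjured adults it read 73.7, 247 and 272, and in microfractured adults 71.2, 192 and 251. All newborn arrays were above all adult arrays, and the adult groups overlapped. The differences were 1.23 ± 0.44 against uninjured adults (limma adjusted p = 0.0314) and 1.39 ± 0.44 against microfractured adults (adjusted p = 0.025), and neither call held when newborn replicate 1 or 3 was left out. Between the adult groups the difference was -0.17 ± 0.47 (adjusted p = 0.819). Cxcr3 itself read 285 to 516 in uninjured adults, 136 to 265 in microfractured adults and 39 to 113 in newborns.

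Cxcl14, a ligand made by stromal and epithelial cells, was lower in newborns than in both adult groups and did not pass the test between the adult groups. It read 622, 579, 706 and 975 in newborns, 2316, 1487 and 1117 in uninjured adults and 1576, 2019 and 2265 in microfractured adults. The newborn difference was -1.13 ± 0.25 against uninjured adults (limma adjusted p = 0.00236) and -1.43 ± 0.25 against microfractured adults (adjusted p = 0.00073), and the first was not called with median centring (-0.43, adjusted p = 0.197). After microfracture it was 0.30 ± 0.27 (adjusted p = 0.423), and 1 more member than in the deposited scaling was called higher with median centring, namely Cxcl14. Cxcl16, a transmembrane ligand of Cxcr6, passed the test in none of the 3 comparisons (-0.23 ± 0.50, -0.89 ± 0.47 and -0.66 ± 0.47).

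The 6 CC ligands of monocytes and macrophages that passed the filter were all called lower in newborns when set against uninjured adults, and 4 of the 6 also fell after microfracture. The shares of all genes tested that were called lower were 29.4% and 19.8%. For Ccl4 and Ccl5 the filter had fixed that direction. Ccl2, Ccl3 and Ccl6 also needed uninjured adult arrays to pass, while Ccl9 did not. None of the 6 was above the table median in a newborn array. All passed through adult arrays alone, so the filter favoured low newborn readings for them. Ccl3, a macrophage inflammatory ligand of Ccr1, read 944, 1127 and 1319 in uninjured adults. It read 204, 298 and 265 in microfractured adults and 7.05, 14.1, 12.6 and 12.3 in newborns. No groups overlapped, and the newborn arrays were lowest. The differences were -2.08 ± 0.32 (limma adjusted p = 0.00133) after microfracture, -5.37 ± 0.30 in newborns against uninjured adults and -3.30 ± 0.30 in newborns against microfractured adults. In newborns Ccl3 lay below the olfactory and vomeronasal receptor medians, so the size of these differences is loose. Under the alternatives tried, the newborn differences ranged from -6.52 to -2.36 against uninjured and from -4.38 to -0.93 against microfractured adults. Ccl6, a CC ligand of rodents, showed the same order, with 889 to 1151, 238 to 311 and 17.4 to 69.1 in uninjured adults, microfractured adults and newborns. It changed by -1.86 ± 0.36 after microfracture and by -4.25 ± 0.34 in newborns against uninjured adults.

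Ccl2, which calls monocytes through Ccr2, read 700, 781 and 1233 in uninjured adults, 43.2, 224 and 346 in microfractured adults and 81.6, 215, 66.2 and 116 in newborns. The uninjured arrays were above all others and the other groups overlapped. It changed by -2.37 ± 0.58 after microfracture (limma adjusted p = 0.00911) and by -2.84 ± 0.54 in newborns against uninjured adults. Ccl4, a neighbour of Ccl3 in function, read 266 to 329 in uninjured adults and at most 69.1 elsewhere. It fell by 2.32 ± 0.54 after microfracture. Ccl9, a rodent ligand of Ccr1, read 931, 408 and 518 in uninjured and 547, 374 and 255 in microfractured adults, which overlapped, and 113, 44.2, 48.3 and 56.9 in newborns. It fell by 2.94 ± 0.38 in newborns against uninjured adults and by 2.33 ± 0.38 against microfractured adults. Ccl5, a ligand made by T cells and macrophages, was called in newborns against uninjured adults (-2.48 ± 0.47) and was -1.22 ± 0.50 after microfracture, which was not called. Ccl25, a gut and thymus homing ligand, fell by 0.83 ± 0.28 in newborns against uninjured adults (adjusted p = 0.0224) but was 0.03 after quantile normalization. Its call was also lost with median centring, without newborn replicate 1 or 3, and without any 1 uninjured adult array.

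Among receptors, all 6 that passed the filter were called lower in newborn mSSC, with uninjured adults as the reference, and Cxcr2, Cxcr4, Ccr1 and Ccr7 also fell after microfracture. Over all genes tested, 29.4% and 19.8% were called lower in those comparisons. Of these 6, Ccr1, Ccr6 and Ccr7 passed only because of the uninjured adults and had to be lower elsewhere. Cxcr2 and Cxcr3 were each above the median in 1 microfractured array and 0 newborn arrays, so they also needed the uninjured adults to pass. Cxcr4 was above it in all 3 microfractured arrays and did not need them. All 6 receptors were above it in 0 newborn arrays, so the filter favoured low newborn readings for each, Cxcr4 included. Cxcr4, the receptor of Cxcl12, read 5548, 5688 and 5274 in uninjured adults. It read 1908, 609 and 1214 in microfractured adults and 174, 159, 103 and 155 in newborns. The uninjured arrays were close together, the microfractured arrays were spread, and no groups overlapped. The differences were -2.28 ± 0.33 (limma adjusted p = 0.0011) after microfracture, -5.10 ± 0.31 in newborns against uninjured adults and -2.82 ± 0.31 in newborns against microfractured adults. Ptprc changed by -2.40 ± 0.26, -5.58 ± 0.24 and -3.18 ± 0.24 in those comparisons.

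Cxcr2, the neutrophil receptor of Cxcl1 and Cxcl2, read 1518, 647 and 812 in uninjured adults, 488, 75.8 and 122 in microfractured adults and 15, 3.66, 1.92 and 29.7 in newborns. It changed by -2.35 ± 0.61 after microfracture (limma adjusted p = 0.0125), a call lost when uninjured adult replicate 1 or 3 or microfractured adult replicate 3 was left out, and by -5.15 ± 0.57 in newborns against uninjured adults. Its ligand Cxcl1 was called in the opposite direction in both comparisons. In newborns Cxcr2 ranged from below to above the olfactory and vomeronasal receptor medians. Its newborn difference against uninjured adults ranged from -6.68 to -2.16 under the alternatives tried. Ccr1, a receptor of Ccl3, Ccl5, Ccl6 and Ccl9 on myeloid cells, read 495 to 718, 134 to 199 and 6.84 to 24.6 in uninjured adults, microfractured adults and newborns. Its differences were -1.88 ± 0.39, -4.36 ± 0.36 and -2.48 ± 0.36. In newborns Ccr1 lay within or below the range of those medians. Its newborn differences ranged from -5.35 to -1.69 against uninjured and from -3.37 to -0.61 against microfractured adults under the alternatives. Ccr7, which leads lymphocytes and dendritic cells to lymph nodes, read 292 to 418 in uninjured adults and at most 15 in every other array. Only uninjured adults carried it past the filter, and elsewhere it lay within or below the range of the olfactory and vomeronasal receptor medians. Its change after microfracture, -3.81 ± 0.69 (limma adjusted p = 0.00265), depends on the pseudocount, and ranged from -5.32 with the smallest to -1.15 with the largest one tried.

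**Figure D3:**
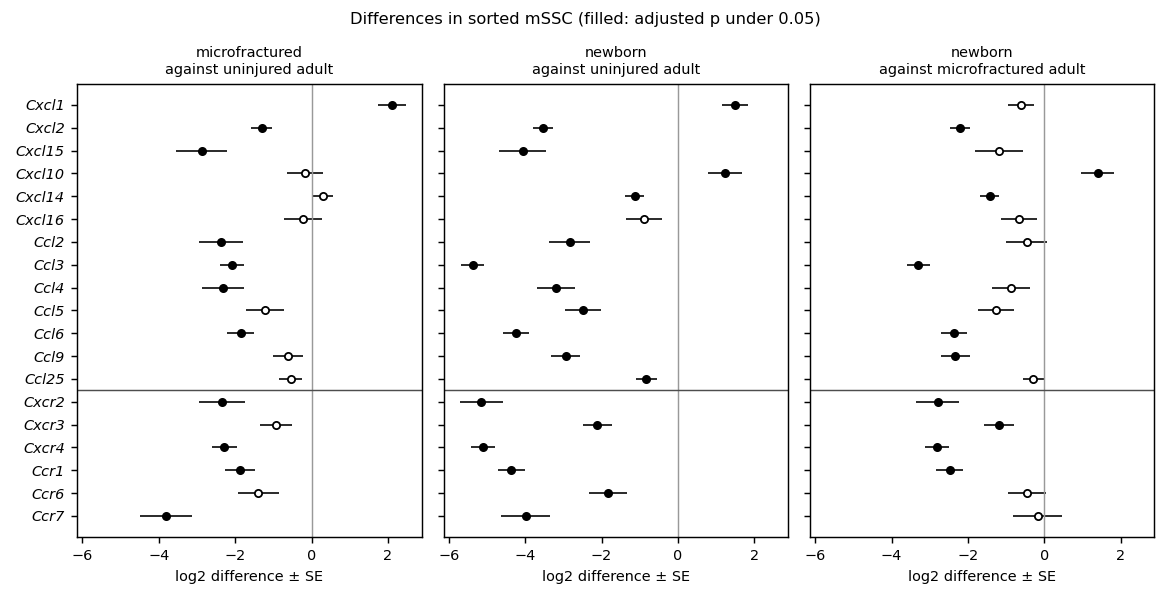
Log2 difference with its SE for the 19 members past the filter in 3 comparisons of mSSC groups, filled where limma's adjusted p was under 0.05, with ligands above and receptors below the line. Cxcl1 alone is filled to the right of 0 after microfracture (2.10 ± 0.37), and all 6 receptors are filled to the left of 0 in newborns against uninjured adults.

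The other 30 members did not pass the filter, and 20 of them were above the table median in no array. Their group means had medians of 38.2 in newborn, 146 in uninjured adult and 52.8 in microfractured adult mSSC. In 29 of the 30 the uninjured adult mean was the highest of the 3, and in 0 the newborn mean was. The medians of the olfactory and vomeronasal receptor genes were likewise highest in uninjured adults. The share of all genes with the highest mean in uninjured adults was not counted. Ccr2, the receptor of Ccl2, read 208 to 269 in uninjured adults, 15.4 to 181 in microfractured adults and 7.7 to 41.4 in newborns. Cx3cl1, a membrane-bound ligand, read 78.5 to 278 in uninjured adults, 179 to 209 in microfractured adults and 34.8 to 63.7 in newborns, so that the adult groups overlapped. When all 18052 genes were tested without a filter, 13 of the 30 were called lower and 0 higher after microfracture, where 26% of all genes were called lower. In newborns against uninjured adults 15 were called lower and 0 higher, where 37.16% of all genes were called lower. In newborns against microfractured adults 1 of the 30, Cx3cl1, was called lower (-1.71 ± 0.43) and 0 higher, where 11.79% of all genes were called lower. Ccl7, Ccl8, Ccl12, Cxcl9 and Cx3cr1 were also among the 30. Their highest reading in any mSSC array was 232, that of Ccl8 in an uninjured adult.

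Proteins that bind or resemble chemokines but fall outside the rule were read from a list of their own. Of 10 tested in mSSC, 1 rose and 4 fell after microfracture, 10 fell in newborns against uninjured adults, and 6 fell in newborns against microfractured adults. The shares of all genes called lower in those comparisons were 19.8%, 29.4% and 18.3%, and 13.3% were called higher after microfracture. Ackr3, a decoy receptor that removes Cxcl12, is the gene counted as the member Cxcr7 in bulk tissue. In mSSC it read 2920, 4351 and 6024 in uninjured adults, 8138, 8744 and 9538 in microfractured adults and 1995 to 2488 in newborns. These groups did not overlap. It rose by 1.05 ± 0.23 after microfracture (limma adjusted p = 0.00619) and differed by -0.89 ± 0.22 between newborns and uninjured adults. Its ligand Cxcl12 changed by -1.18 ± 0.24 after microfracture. The other 3 that fell were the platelet chemokine Ppbp (-2.94 ± 0.64), the Mif receptor chain Cd74 (-1.86 ± 0.29) and Cklf (-0.95 ± 0.25). The decoy receptors Ackr2 and Ackr4 changed by -3.65 ± 0.36 and -4.07 ± 0.40 in newborns against uninjured adults, with Ackr1 (-1.71 ± 0.30), Ccrl2 (-3.57 ± 0.55) and the chemerin gene Rarres2 (-1.43 ± 0.37) in the same direction.

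Of 16 genes that act downstream of chemokine receptors, 0 rose and 9 fell after microfracture, 0 rose and 11 fell in newborns against uninjured adults, and 1 rose and 8 fell in newborns against microfractured adults. Over all genes tested 13.3% were called higher and 19.8% lower after microfracture, 25.2% and 29.4% in newborns against uninjured adults, and 18.4% and 18.3% in newborns against microfractured adults. Those called after microfracture included Rac2 (-1.91 ± 0.28) and Dock2 (-1.95 ± 0.40), which move blood cells, the kinases Fgr (-1.42 ± 0.44) and Pik3cg (-1.81 ± 0.47), and the receptor kinases Grk2 (-0.76 ± 0.24) and Grk3 (-1.52 ± 0.26). Rac2, Dock2, Fgr and Pik3cg are expressed mainly in blood cells. Ptprc and the low end of the signal also fell after microfracture, and their part in these changes was not tested. Of 12 cytokines, receptors and factors that induce chemokine genes, 1 rose and 1 fell after microfracture. Rela, a subunit of NF-kappaB, rose by 1.24 ± 0.18 (limma adjusted p = 0.00122), and Il1b, an inflammatory cytokine of myeloid cells, fell by 1.78 ± 0.46. In newborns against uninjured adults 2 of the 12 rose, Il6 (1.32 ± 0.52, adjusted p = 0.0485) and Rela (0.92 ± 0.17), and 6 fell, with Il1b at -6.53 ± 0.43, Tlr4 at -2.31 ± 0.29, Tnfaip3 at -1.80 ± 0.30 and Tlr2 at -1.48 ± 0.22. Il6 and Cxcl1 were both called higher in newborns while Il1b and Cxcl2 were called lower.

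In bulk tissue the values were activity scores between -100 and 100, and a difference is in score points. Fewer cells of a type and less RNA per cell cannot be told apart in these samples. Here 37 of the 51 members passed the filter, above the table median of -16.4 in at least 3 arrays. In microfractured against uninjured adult bone, limma called 0 of 37 members higher and 0 lower, as it did for 0% of all 16606 genes, and 1 member, Ccr3, had an unadjusted p under 0.05 (-74.27 ± 29.25). In newborn against uninjured adult bone 0 members were called higher and 7 lower, against 2.01% and 4.35% of all genes. With no filter, 1 of the 51 members was called higher in that comparison and 6 lower, where 5.1% of all genes were called in either direction. In newborn against microfractured adult bone 0 were higher and 1 lower, against 0.403% and 1.05%. The score of Ptprc was 82.6 to 94.4 in uninjured adult, 84 to 97.1 in microfractured adult and -99.1 to -5.36 in newborn bone, and its part in these differences was not tested.

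Of the receptors, Ccr2, the monocyte receptor of Ccl2, had the largest difference among the members called between newborn and adult bone. Its scores were -42.6, -52.6 and 9.09 in newborns. In adults they were 85.7, 92.7, 85.5, 91.4 and 97 without injury and 90.3, 92.1 and 93.3 after microfracture. No newborn array reached any adult array, and both adult groups lay near the top of the scale, where a bounded score cannot separate levels. The difference was -119.13 ± 15.06 (limma adjusted p = 0.00215) against uninjured and -120.56 ± 16.84 (adjusted p = 0.00699) against microfractured adults. Cxcr4 scored 61, 19.3 and 29.7 in newborns and 91.1 to 99.8 in adults without injury (-58.55 ± 9.87, adjusted p = 0.00765), and 74.8, 92.6 and 76.9 after microfracture. Ccr1 scored -41.7, -4.15 and -1.58 in newborns and 55.1 to 94.7 in uninjured adults (-88.54 ± 19.15, adjusted p = 0.0218). Cxcr2, Cx3cr1 and Ccr3 were lower in the newborn mean as well but did not pass the test, with differences of -100.83 ± 29.52, -71.04 ± 23.03 and -87.45 ± 29.25 (adjusted p = 0.0703, 0.0999 and 0.11).

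Of the ligands, Ccl5, Ccl6, Ccl8 and Ccl9 were called lower in newborn bone when set against uninjured adult bone. Ccl9 scored -5.35, -25.7 and 3.73 in newborns. Without injury adults scored 53 to 65.1, and after microfracture 40.2 to 50.1 (-66.01 ± 16.13 against uninjured adults, limma adjusted p = 0.0352). Ccl6 scored -53.9 to -10.7, 31.8 to 52.5 and 29.5 to 46.4 in that order (-72.35 ± 16.78, adjusted p = 0.0285). Newborn arrays lay below all adult arrays for both genes. The differences of Ccl5 and Ccl8 were -63.46 ± 13.61 and -60.92 ± 15.30 (adjusted p = 0.0211 and 0.0401). None of the 7 calls held with the replicate number as a block, and the calls of Ccl8 and Ccl9 were lost under 13 and 12 of the alternatives tried. Cxcl1, which did not pass the filter, scored -57.6 to -16.3 in newborn, -76.7 to -26.3 in uninjured and -77.6 to -36 in microfractured adult bone, and these ranges overlapped. Cxcl2 overlapped as well, and its differences were -16.36 ± 13.11 after microfracture and -1.45 ± 13.11 in newborns against uninjured adults, neither called. Cxcl14 was 7.64 ± 24.14 in newborns against uninjured adults (not called).

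Ccl7, a monocyte-attracting ligand, did not pass the filter in bulk tissue, and its groups stood apart. It scored -86.8, -90.3, -86.4, -93.4 and -90.1 in uninjured adults and -11.9, -6.24 and -44.3 after microfracture. Every microfractured array was above every uninjured one. With no filter the difference was 68.58 ± 14.80, which had an adjusted p of 0.287 over all genes and was not called. Ccl12, its neighbour among the monocyte-attracting ligands, scored -98.3 to -45.8 in uninjured and -63.8 to -7.88 in microfractured adults, and differed by 31.78 ± 14.95 (adjusted p = 0.555). In mSSC, Ccl7 read 46 to 225 in uninjured and 45.8 to 61.7 in microfractured adults.

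**Figure D4:**
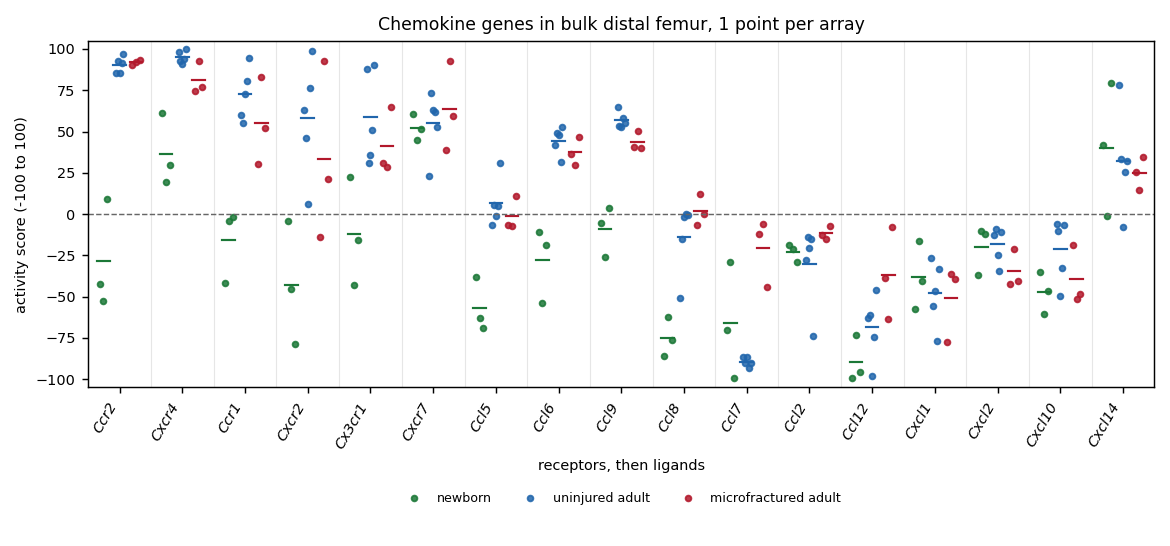
Activity score of 17 members in each of the 11 bulk arrays, with 1 point per array and a bar at each group mean. Newborn arrays lie below all adult arrays for Ccr2, Cxcr4, Ccr1, Ccl6 and Ccl9, while the ranges of Cxcl1, Cxcl2 and Cxcl14 overlap in all 3 groups.

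Between tissues, 15 members were tested in both mSSC and bulk bone. Differences had the same sign in 8 of the 15 after microfracture (48.48% of all genes tested in both), in 10 for newborns against uninjured adults (56.52%) and in 10 for newborns against microfractured adults (57.66%). Cxcr4, Ccr1, Ccl5, Ccl6 and Ccl9 were called lower in newborns than in uninjured adults in both tissues. In mSSC the filter had fixed this direction for Ccr1 and Ccl5, and Ccl6 had needed uninjured adult arrays to pass. Cxcr4 and Ccl9 had passed through adult arrays alone. The share of all genes called lower in both tissues was not counted. Values of the 2 tables are on different scales and were not compared.

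With 1 array each, the mSSC from microfractured joints given PBS, BMP2, a bone-inducing factor, or VEGFR1, a receptor that binds the vessel growth factor VEGF, allow no test. At least 50 score points from PBS served as a fixed size. BMP2 stood 50 points higher than PBS for 2 of the 51 members and lower for 4, against 5.24% and 6.36% of all 20968 genes. VEGFR1 stood higher for 2 and lower for 5, against 5.39% and 5.23%. With the mean over a gene's probe sets these counts were 1 and 2, so the VEGFR1 members named next rest in part on the choice of probe set. The median differences of the members, -1.26 and -0.79, were near those of all genes, -0.45 and -0.30. Under BMP2 the receptors Ccr4 and Cxcr5, which serve lymphocytes, were 88.42 and 66.40 points above PBS. Ccl24, Cxcl11, Cxcl5 and Cxcr3 stood at -70.18, -89.76, -61.30 and -58.05. Under VEGFR1, Ccl20 and Ccr9 were 59.26 and 75.27 points above PBS, and Ccl24, Ccl25, Ccl28, Cxcl11 and Cxcr3 stood at -63.55, -60.87, -84.02, -57.57 and -53.06. Ccl24, Cxcl11 and Cxcr3 were past the size with both factors, which share the PBS array.

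Among other members, Cxcl14 and Cxcr7 scored high on all 3 arrays. Cxcl14 scored 83.8, 85.7 and 77.2 with PBS, BMP2 and VEGFR1, and Cxcr7 scored 90.5, 86.2 and 90.9. Ccl2 scored 10.6, 11.5 and 9.8. Cxcl1 scored -0.97, -6.74 and 24.3, and Cxcl2 scored -90.2, -49.4 and -65. Cxcr4 scored -72, -50.5 and -47.2, Ccr2 was between -99.6 and -96.1, and Ptprc scored -63.4, -42.2 and -27.8. Itgav, whose protein the gate selects for, scored 92.3, -1.92 and 77.5, so the BMP2 array was low for it.

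**Figure D5:**
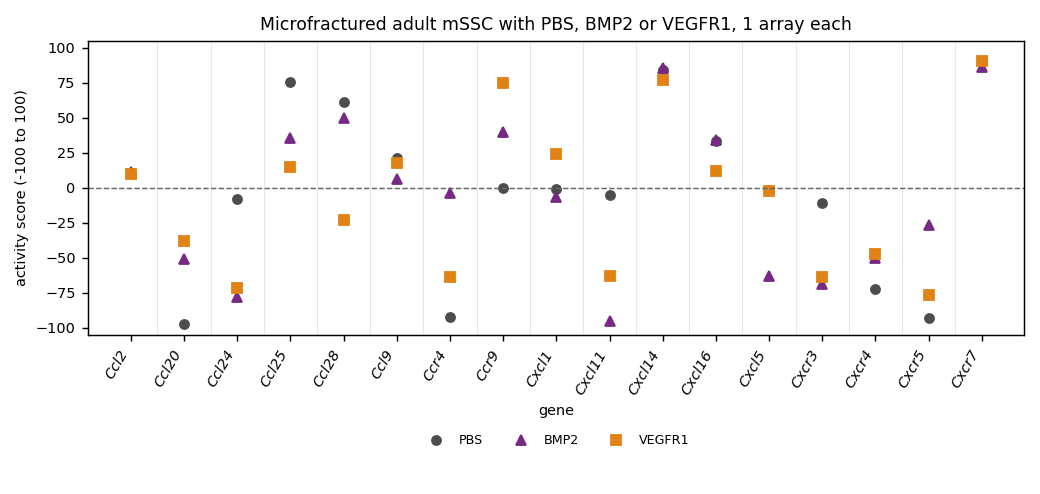
Activity score of 17 members on the 3 single arrays of microfractured adult mSSC with PBS, BMP2 or VEGFR1, among them every member at least 50 points from PBS. Cxcl14 and Cxcr7 stay above 75 on all 3 arrays, while Ccl28 with VEGFR1, and Ccr4 and Cxcl11 with BMP2, differ from PBS by -84.02, 88.42 and -89.76 points.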

How the data were processed

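RNA of sorted mSSC (500 to 1000 cells) and of crushed bulk bone was amplified in 2 rounds and hybridised to Affymetrix arrays, per the labels' protocols. For 10 mSSC arrays the authors deposited MAS5 intensities, linear values of 18052 genes, per the file headers. For 11 bulk and 3 factor arrays the authors deposited a score from -100 to 100 for 45101 probe sets. Its definition is not given in the sources used here, and scores near a bound understate differences. Of the probe sets 38557 named 1 gene, 860 several and 5684 none. Each gene was read from its single-symbol probe set with the highest mean, so genes on shared probe sets were not used.

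Intensities were tested as log2(intensity + 16), scores as deposited, with limma 3.58.1 (lmFit, eBayes with trend) in R 4.3.3. All groups of a tissue entered 1 fit, genes had to exceed the table median in at least 3 arrays, and calls used a Benjamini-Hochberg adjusted p under 0.05, with the adjustment over every gene in the fit. The script was tested on simulated data. Arrays have no read depth, and their number limits the precision. Members, gene lists and the naming rule (each called member, a fixed list of 25 well-known members, each member 50 points from PBS and each called related gene) were chosen with earlier results of these data known. Between replicates the correlation over genes was 0.832 to 0.967 in mSSC and 0.425 to 0.796 in bulk tissue. Alternatives changed the pseudocount, filter, scaling, probe set rule, trend, samples and replicate block. Some listed genes are counted in the totals but their own values are not reported here.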

Additional observations from a re-analysis of the deposited data

Results flagged for a closer look

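Uninjured adult bulk replicate 5 lay far from the other 4 arrays of its group for 3 members. Ccl2 scored -73.63 there against -28.06 to -14.07 in the others, Ccr9 scored 10.25 against 82.38 to 91.88, and Cxcl5 scored -66.19 against -4.66 to -0.25. Each gap was above Dixon's 95% critical value for a group of 5. This was examined for the 37 members tested in bulk tissue, and chance marks about 1 in 20 groups. In mSSC 0 of the 19 members examined, in the newborn group of 4 arrays, was marked. None of the 15 members tested in both tissues moved one way in all arrays of one tissue and the opposite way in all arrays of the other.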

How the results depend on the processing

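Of the members called in mSSC, 9 of 11 (microfractured against uninjured adults), 14 of 18 (newborns against uninjured adults) and 8 of 10 (newborns against microfractured adults) were called in the same direction under every alternative in which they were tested. After microfracture the count of 11 became 24 with no filter and 7 with the filter set at percentile 75, and ranged from 6 to 13 when 1 replicate was left out. For newborns against uninjured adults the count of 18 became 33 and 8 under those filters and ranged from 10 to 18 with a replicate left out. For newborns against microfractured adults the count of 10 became 6 under the stricter filter and ranged from 8 to 11. The filters change how many members are tested (49 and 8), and leaving out an uninjured adult array leaves 13. Ccl25 in newborns against uninjured adults went from -0.83 to 0.03 with quantile normalization, and the cause was not tested. Its call was also lost under 6 other alternatives of the 18 in which it was tested.

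In bulk tissue the count after microfracture was 0 under all alternatives, with 0 to 2 members at an unadjusted p under 0.05. With the replicate block the count for newborns against uninjured adults fell from 7 to 0, with 11 members at an unadjusted p under 0.05, and it ranged from 3 to 7 with a replicate left out. For newborns against microfractured adults the count of 1 became 3 with the mean over probe sets, 4 without a trend, and 0 with the replicate block or with only the 2 groups compared, and was 1 or 2 with a replicate left out. The block called 13, 18 and 11 members in the 3 mSSC comparisons. Same-numbered arrays shared only a number: correlations of their deviations from the group means were -0.052 to 0.233 in mSSC and -0.209 to 0.108 in bulk tissue. VEGFR1 stood at least 50 points from PBS for 3 members instead of 7 with the mean over probe sets. The causes were not tested.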
